A study of Mus musculus with 26 samples.

Results

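The tumors described here were the 6 control tumors of a series of 26 subcutaneous Panc02 tumors, chosen by their titles in the sample labels and numbered 1 to 6 as there. Panc02 is a cell line of murine pancreatic ductal adenocarcinoma (PDAC), and it was injected under the skin of the right flank of male C57BL/6 mice. The control mice ate the AIN-93G diet without HMB, the leucine metabolite tested in the study, and received no anti-PD1 antibody, and per the study's methods they were given an isotype control antibody, which the labels do not mention. The other 20 tumors came from mice given HMB, anti-PD1 or both, and they are not compared here. All 6 grafts were of the same cell line in 1 strain and sex of mouse and grew outside the pancreas, which limits them as a model of PDAC, and no source used here gives the age of the mice at sampling. RNA came from the whole homogenized tumor and was measured on 1 Clariom S array per tumor. Transcripts of the injected cells and of the host cannot be told apart, and neither can fewer cells of a type and less RNA per cell. The labels do not say that the 6 tumors came from separate animals, while the study's methods describe a single injection site per mouse, and the series' own design text states other group sizes than the titles do.

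PDAC arises from the exocrine pancreas, and most tumors grow within a dense stroma. Fibroblasts lay down collagens and other matrix there, macrophages are abundant, and cytotoxic T cells are often few. T and NK cells release interferon-γ, which induces antigen presentation genes and the guanylate-binding and immunity-related GTPases in tumor and host cells alike. A baseline profile of such tumors therefore mixes the programs of malignant, stromal and immune cells.

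The values were processed log-scale intensities, taken as log2, of 28846 probe sets, of which 19572 carried 1 gene symbol and gave 19505 genes with 1 probe set each. The array medians lay between 6.97 and 7.01 over all probe sets. Medians of the 5222 negative-control probe sets ran from 7.02 to 7.15, and their 95th percentile, called the background line here, was 10.94 to 11.08 per tumor with a mean of 11.03. Between 4204 and 4489 genes lay above the line in a tumor, 3556 of 19505 (18.2%) lay above it in all 6 tumors, 1450 in 1 to 5 tumors and 14499 in none. The sources do not say what the negative controls bind, and the line is strict, since the brightest of 23 antigenomic background probe sets lay at only 7.49 to 8.22. A gene under the line is thus not shown to be absent. Ppwd1, Cask and Tlr13 passed by at most 0.002 in their lowest tumor, and Ccdc34, Maea and Cplane2 missed it, with Cplane2 at −0.003 in its lowest tumor.

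**Figure D1:**
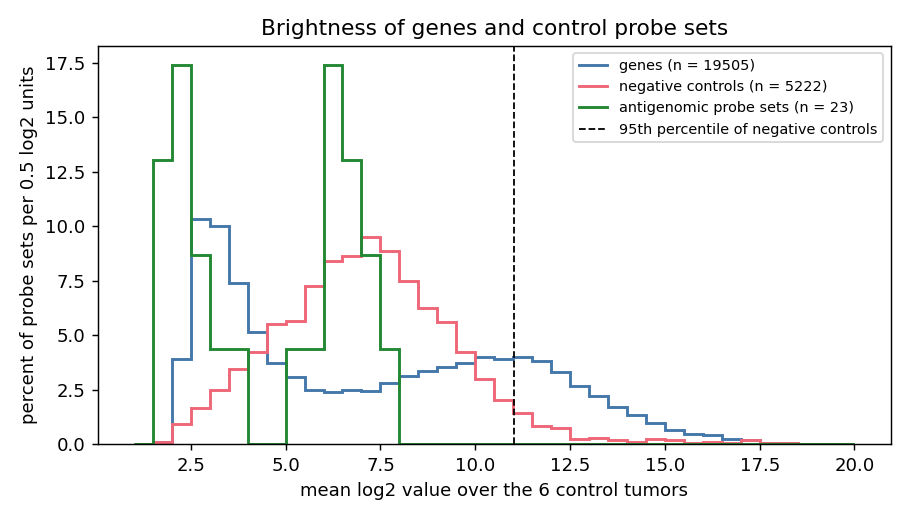
Mean log2 value over the 6 control tumors (x axis, in bins of 0.5) against the percent of probe sets per bin (y axis) for 19505 genes, 5222 negative controls and 23 antigenomic probe sets. The dashed line marks the mean 95th percentile of the negative controls, 11.03, and 4267 genes had a mean above it.

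Tumor 4 stood apart from the other control tumors. Across the 3556 genes above the line in all tumors, Pearson's r was 0.926 to 0.941 for the 5 pairs that include tumor 4 and 0.952 to 0.974 for the other 10 pairs, given as a description across genes, which are not independent replicates. Of the 4267 genes with a mean above the line, 130 (3.05%) were over 1 log2 unit below the median of the other 5 tumors in tumor 4 and 103 were over 1 unit above it. In tumor 3 these counts were 82 (1.92%) and 45, and in tumor 2 they were 40 and 44, while tumors 1, 5 and 6 had 14 to 31 and 21 to 28. Tumor 4 was the farthest of the 6 from the gene's median for 1670 of the 4267 genes, tumor 6 for 688, tumor 3 for 644 and the rest for 341 to 470. Over all 19505 genes tumor 4 was the highest for 22.3% and the lowest for 21.9%, so counts of list members at an end are given below beside such shares. Tumor 2 had, in addition, the highest values of most hepatocyte genes, which mark the main cells of the liver. Alb, which encodes serum albumin, had 6.29, 13.91, 4.72, 5.93, 6.34 and 5.37 in tumors 1 to 6, and tumor 2 was the highest in 24 of 26 hepatocyte genes, beside 15.3% of all genes. The hepatocyte genes were chosen after their values were seen. Of the 26, 25 were above the line in no tumor, beside 14499 of all 19505 genes.

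Among the 30 brightest genes, those of protein synthesis, the cytoskeleton and protein folding were the most frequent, and 8 were in no list. Probe sets differ in how well they bind, so the order is one of brightness and not of transcript number. Eef1a1, which carries aminoacyl-tRNA to the ribosome, had the highest mean log2 value at 18.92 ± 0.02 (SD, n = 6 here and below), and its 6 tumors lay between 18.90 and 18.94. B2m, the light chain of MHC class I molecules, came next at 18.86 ± 0.14. Cp, which encodes the copper-carrying ferroxidase ceruloplasmin, averaged 18.71 ± 0.18 and ranged from 18.41 to 18.88. Cct2, a subunit of the chaperonin that folds actin and tubulin, averaged 18.37 ± 0.13, and the GPI-anchored surface protein gene Ly6e averaged 18.36 ± 0.13. Rps6, a protein of the small ribosomal subunit, averaged 18.36 ± 0.09. These neighbours in the order overlapped from tumor to tumor.

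Of the 30 brightest genes, 6 encode cytosolic ribosomal proteins (Rps6, Rpl41, Rpl23, Rpl21, Rpl4 and Rps23), 3 translation factors (Eef1a1, Pabpc1 and Eef2) and 4 the actin and tubulin cytoskeleton (Actb, Tmsb4x, Tubb5 and Cfl1). Chaperones gave 3 (Cct2, Hspa5 and Calr), and iron and oxidative stress genes gave Fth1, the ferritin heavy chain at 18.27 ± 0.11, and Mt1, the metal-binding metallothionein 1 at 17.69 ± 0.39. Mt1 was the most spread of these, with 18.13 in tumor 4 and 16.98 in tumor 6. Fn1, a fibronectin of the stromal matrix, averaged 18.15 ± 0.22, and Apoe, a lipid carrier made by macrophages, averaged 18.33 ± 0.30. The 8 genes in no list were Cp, Ly6e, Nfib, Serinc3, Ywhae, Ptma, Itm2b and Ctsc. Among the 100 brightest genes were 24 of the 56 measured ribosomal protein genes. Elsewhere, 18 of 24 oxidative phosphorylation, 17 of 18 ubiquitin and proteasome and 14 of 15 lysosome genes lay above the line in all 6 tumors. Every one of the 56 ribosomal genes, and all measured translation factor (14), cytoskeleton (19) and splicing genes (14), lay above the line in all 6 tumors. Over all genes this share was 18.2%.

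**Figure D2:**
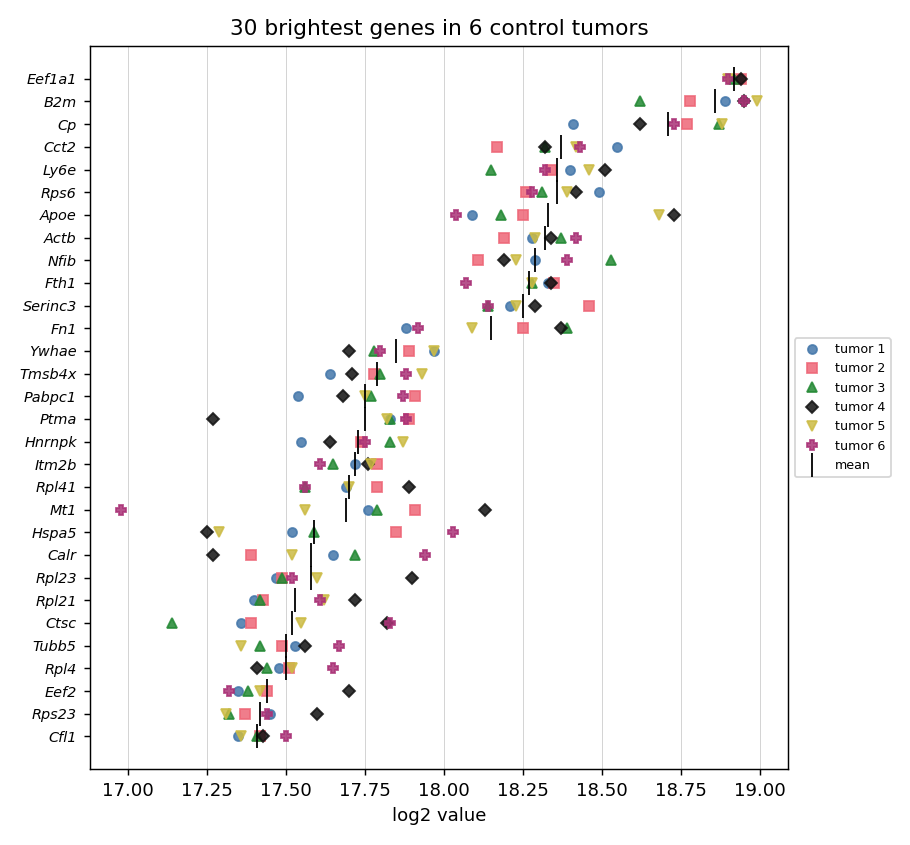
Log2 value (x axis) of the 30 genes with the highest mean (y axis, brightest at the top), with 1 marker per control tumor and a vertical tick for the mean of 6. Eef1a1 at the top spans 18.90 to 18.94, and Mt1 has the widest span, 16.98 to 18.13.

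Of the genes written in lists for tumor, stromal and immune programs, 46 of 124 measured tumor genes, 16 of 132 stromal genes and 63 of 231 immune genes lay above the line in all 6 tumors. These are 37.1%, 12.1% and 27.3%, beside 18.2% of all genes. Without tumor 4 the stromal count was 23. The lists were written from genes known for these cells, which are often highly expressed ones, so the shares are descriptions and not tests.

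**Figure D3:**
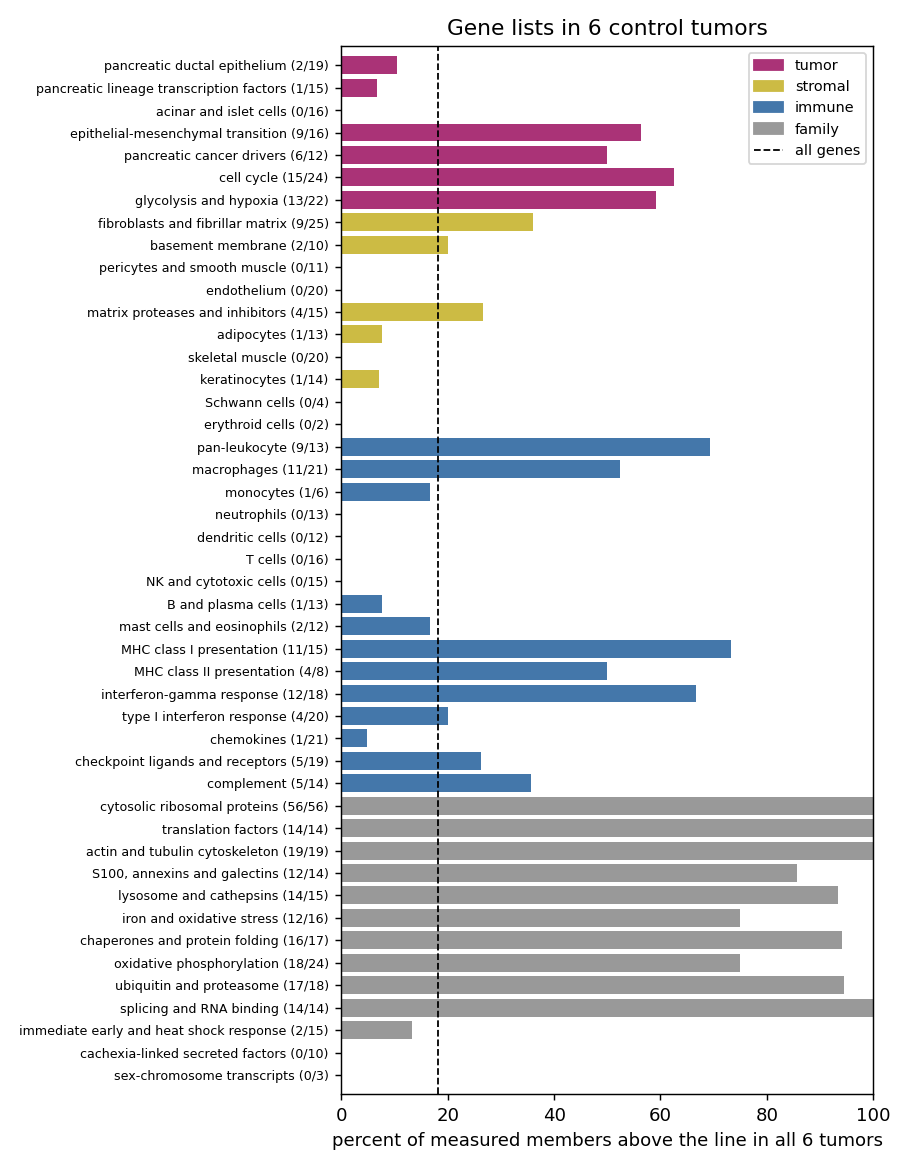
Percent of the measured members of 46 gene lists (x axis) that lay above the background line in all 6 control tumors, with the counts beside each list name and colors for tumor, stromal, immune and other gene family lists. The dashed line marks the 18.2% of all genes, and the bars run from 0 of 20 endothelial genes to 56 of 56 ribosomal protein genes.

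Genes of the mesenchymal side of the tumor were bright, and most genes of ductal epithelium were dim. Of 19 ductal genes, 2 lay above the line in all tumors, beside 18.2% of all genes. They were the paired simple-epithelial keratins Krt8 at 14.58 ± 0.25 and Krt18 at 14.64 ± 0.22. Krt19, a keratin of duct cells, had a mean of 6.47 ± 1.93 and was above the line in no tumor, and neither was the epithelial adhesion molecule gene Epcam at 4.77 ± 0.22. E-cadherin (Cdh1), which joins epithelial cells, lay above the line in 3 tumors, with 9.45, 10.18, 11.64, 10.45, 12.85 and 12.45 in tumors 1 to 6. Krt7 was above it only in tumor 2, at 11.73 against 6.06 to 10.05 in the other tumors. The markers written for ductal epithelium thus gave a mixed check of the label, with the keratin pair present and Krt19 and Epcam under the line.

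Of 16 genes of the epithelial-mesenchymal transition (EMT), 9 lay above the line in every tumor, beside 18.2% of all genes. Vim, the intermediate filament protein of mesenchymal cells, averaged 17.14 ± 0.25, with a lowest value of 16.86, a median of 17.19 and a highest of 17.50. Lgals1, a galactose-binding lectin, averaged 17.21 ± 0.16, and the fibronectin receptor chain Itgb1 averaged 16.33 ± 0.28. The receptor tyrosine kinase gene Axl (15.59 ± 0.17), the hyaluronan receptor gene Cd44 (15.14 ± 0.43) and Zeb1 (12.46 ± 0.52), a repressor of E-cadherin, were above it as well. The other EMT transcription factors Snai1 (6.78 ± 1.32) and Twist1 (5.65 ± 0.81) and N-cadherin (Cdh2, 7.70 ± 0.60) were above it in no tumor. The EMT score, the mean over the 9 genes of each value minus the gene's own mean, differed by only 0.324 between the lowest and highest tumor.

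Sox9, a transcription factor of duct and progenitor cells, was above the line throughout. It was the only one of 15 pancreatic lineage factors to be so, beside 18.2% of all genes. It had 11.96 in tumor 2 and up to 14.22 elsewhere, with a mean of 13.36 ± 0.78. Pdx1, needed to form the pancreas, averaged 7.87 ± 0.73 and was above it in no tumor. All 16 acinar and islet genes were above it in no tumor, beside 14499 of all 19505 genes. Among the 16 were Cpa1 (4.72 ± 0.46), a digestive carboxypeptidase, and Ins2 (3.74 ± 0.33), which encodes insulin. Of 12 measured pancreatic cancer driver genes, 6 lay above the line in all tumors, beside 18.2% of all genes. They were the growth regulator Myc (13.66 ± 0.36), the hepatocyte growth factor receptor Met (13.84 ± 0.21), Tgfbr2 (13.94 ± 0.40) and Smad4 (11.38 ± 0.17) of the TGF-β pathway, the kinase Stk11 (13.26 ± 0.20) and the histone demethylase Kdm6a (11.99 ± 0.19). Egfr was above it in none, with a mean of 8.78 ± 0.56.

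Proliferation and glycolysis genes were bright. Of the measured members 15 of 24 and 13 of 22 were above the line in all tumors, beside 18.2% of all genes. Mki67, which encodes the proliferation marker Ki-67, had 15.01, 14.79, 14.67, 14.06, 14.94 and 15.37 in tumors 1 to 6, and Pcna, the sliding clamp of DNA replication, averaged 15.77 ± 0.22. Tumor 6 was the highest for 19 of the 24 cell cycle genes, beside 17.1% of all genes and 23.0% of those with a mean above the line, and its score over the 15 members was 0.495. Tumor 3 was the lowest at −0.437 and tumor 4 followed at −0.342. Ccna2, a cyclin of S and G2 phase, had 14.55 in tumor 6 and 13.19 to 13.95 in the other tumors. Gapdh and Pkm, enzymes of glycolysis, averaged 17.03 ± 0.14 and 16.95 ± 0.24.

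Within glycolysis and hypoxia, tumor 4 was the highest for 14 of the 22 genes, beside 22.3% of all genes, and its score was 0.526, followed by tumor 3 at 0.205 and the other 4 tumors between −0.251 and −0.071. Ndrg1, a gene induced by low oxygen, had 16.59 in tumor 4 and 15.76 in tumor 3, and 14.63 to 15.37 elsewhere. The glucose transporter gene Slc2a1 had 14.34 in tumor 4, 13.76 in tumor 3 and 12.67 to 13.33 in the rest. Car9, a hypoxia-induced carbonic anhydrase, lay above the line only in these 2 tumors, at 12.74 and 11.83, and at 8.52 to 10.22 elsewhere. The order of tumors was the same at its upper end for these 3 genes, but not for the whole list. Tumor 3 was the highest for 6 of the 22, beside 17.5% of all genes. Vegfa, a growth factor of blood vessels that hypoxia induces, was highest in tumor 3, with 12.75 in tumor 4 and 10.95 to 12.06 in the others.

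Among genes with a mean above the line, the matrix genes Col1a2 (SD 3.30) and Col1a1 (2.94) had the largest spread between tumors. Without tumor 4 their SDs were 0.89 and 0.74. Over list members with a mean above the line, the score of mast cells and eosinophils ranged more widely. Its range was 4.18, against 2.98 for fibroblasts and fibrillar matrix. Of 25 fibroblast and fibrillar matrix genes, 9 lay above the line in all tumors, beside 18.2% of all genes. By their mean 15 did, beside 4267 of all 19505 genes. Fn1 (18.15 ± 0.22) and Sparc (17.32 ± 0.42), a collagen-binding matrix protein gene, were the brightest. Pdgfrb, the growth factor receptor of fibroblasts and pericytes, averaged 14.80 ± 0.78. The 2 chains of type I collagen, the main fiber of this stroma, were bright in 5 tumors and near background in tumor 4.

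Col1a1 had 14.47, 15.33, 13.44, 7.47, 14.19 and 15.06 in tumors 1 to 6. Col1a2 had 14.16, 15.49, 13.47, 6.53, 13.65 and 15.10. In tumor 4 both lay near the negative-control median of 7.13, so only a bound can be given. The mean of the other 5 was at least 3.43 and 3.30 log2 units higher, measured from the line of 11.07 in tumor 4. Col3a1, the type III collagen chain, had 9.48 in tumor 4 and 14.07 to 15.98 in the others. Postn, a matrix protein made by activated fibroblasts, had 8.41 in tumor 4 and 13.68 to 15.07 in the others. The gelatinase gene Mmp2 had 7.05 there and 11.72 to 13.56 elsewhere, and the matrix glycoprotein gene Tnc had 6.93 and 11.77 to 14.85. For each of these 6 genes the value of tumor 4 was under the line and those of the other 5 tumors were over it.

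Some dimmer matrix genes had a like gap, among them Col6a3, a chain of type VI collagen, with 6.64 in tumor 4 and 9.56 to 12.21 in the others. Other matrix genes had a smaller gap or none. Dcn, the small proteoglycan decorin that binds collagen fibers, had 13.27 in tumor 4 and 15.27 to 17.03 in the others, so it stayed above the line. Lum, the related lumican, had 12.48 and 13.88 to 15.60. Fn1 spanned only 17.88 to 18.39 and Bgn, another such proteoglycan, 13.73 to 15.03 over all 6 tumors, and tumor 4 was the highest for Bgn (15.03) and the second highest for Fn1 (18.37) and Pdgfrb (15.30). Of the 15 genes with a mean above the line, 9 were over 1 log2 unit lower in tumor 4 than the median of the others, beside 3.05% of all 4267 genes. With values under the line set to it, a setting chosen after seeing the data, there were 8, beside 2.11%. Their score, which takes values under the line as deposited, was −2.22 in tumor 4 and 0.201 to 0.762 in the rest. Over the 9 genes above the line in all tumors, which leave out the collagens under the line in tumor 4, the score was −0.633 in tumor 4. Its range was 1.05 with tumor 4 and 0.478 without it.

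**Figure D4:**
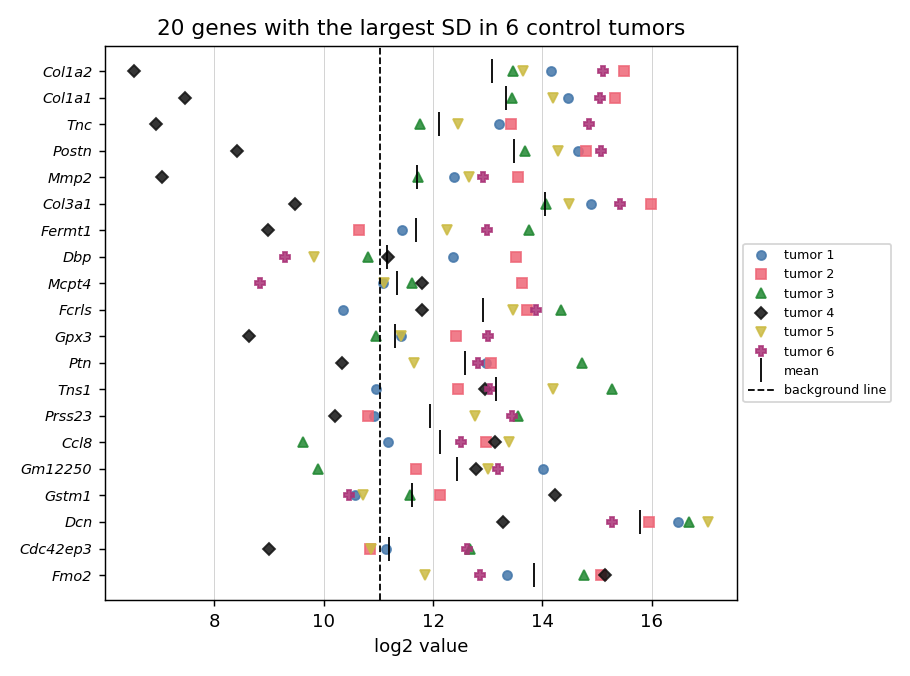
Log2 value (x axis) of the 20 genes with the largest SD among genes with a mean above the line (y axis, largest SD at the top), with 1 marker per control tumor, a vertical tick for the mean and a dashed line at 11.03. The black diamonds of tumor 4 lie far left of the other tumors for Col1a2 (6.53), Col1a1 (7.47), Tnc (6.93), Postn (8.41), Mmp2 (7.05) and Col3a1 (9.48).

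Tumor 4 also had the lowest values of most adipocyte genes and the highest of most endothelial genes. Adiponectin (Adipoq), a hormone of fat cells, had 2.77 in tumor 4 and from 5.06 to 9.0 in the others, all under the line. Fabp4, the fatty acid binding protein of fat cells and some macrophages and vessels, had 9.89 in tumor 4 and 11.46 to 13.40 in the others. Tumor 4 was the lowest for 8 of 13 adipocyte genes, beside 21.9% of all genes, and the highest for 15 of 20 endothelial genes, beside 22.3%. No endothelial gene lay above the line in all tumors, beside 18.2% of all genes. Pecam1, an adhesion molecule of endothelium, had 12.51 in tumor 4 and 10.69 to 11.18 in the others, and Cdh5, the endothelial cadherin, had 12.87 and 10.54 to 11.56. For both genes tumor 4 did not overlap the other 5. The part of adipocytes and vessels in the matrix values was not tested.

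Of 11 pericyte and smooth muscle genes 9 were above the line in no tumor, beside 14499 of all 19505 genes. Acta2, the smooth muscle actin of activated fibroblasts and pericytes, passed in 5 tumors at 10.94 to 12.95 over all 6, and the pericyte regulator gene Rgs5 spanned 9.40 to 10.71. None of 20 skeletal muscle genes was above the line in all tumors, beside 18.2% of all genes. The muscle actin Acta1 averaged 4.15 ± 0.55 and the muscle creatine kinase Ckm 6.34 ± 0.29. Tnni2, a troponin of fast muscle, passed in 5 tumors at 10.88 to 12.83, and Eno3, the muscle enolase, in tumor 6 at 11.11, while the other 18 passed in none. Keratinocyte markers Krt5 (2.27 ± 0.16) and Krt14 (7.64 ± 1.34) lay under it in all 6, and Trp63 (12.71 ± 0.53), a transcription factor of squamous epithelia, was the only one of 14 keratinocyte genes above it throughout. Of the matrix proteases and their inhibitors, the membrane-anchored Mmp14 (14.31 ± 0.15), Timp1, Timp2 (15.76 ± 0.33) and Adam17 (13.86 ± 0.19) were above it in all 6. Those 4 varied little between tumors, with scores from −0.201 to 0.117.

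Leukocyte genes were led by macrophages. Ptprc, which encodes CD45 of all leukocytes, had 14.09 ± 0.36. Of pan-leukocyte genes 9 of 13 and of macrophage genes 11 of 21 lay above the line in all tumors, beside 18.2% of all genes. The lysozyme gene Lyz2 averaged 16.94 ± 0.19 and the Fc receptor gene Fcgr3 16.27 ± 0.39. Csf1r, the receptor for the macrophage growth factor, spanned 14.48 to 15.06. C1qa, C1qb and C1qc, whose products form the first complement component and come mostly from macrophages, averaged 14.87 ± 0.38, 15.17 ± 0.35 and 14.13 ± 0.44. Adgre1, which encodes the murine macrophage antigen F4/80, averaged 13.10 ± 0.33, and Mrc1, the mannose receptor, 14.38 ± 0.60.

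Of genes used to tell macrophage states apart, Mrc1 was above the line in all tumors and the scavenger receptor gene Msr1 in 5, at 10.89 to 12.33. Arg1, the arginase of alternatively activated macrophages, averaged 5.59 ± 0.90, and the inducible nitric oxide synthase gene Nos2 averaged 4.73 ± 0.46, both above it in no tumor. Tnf, an inflammatory cytokine, averaged 7.22 ± 1.16 and was above it in no tumor. Of 6 monocyte genes, Plac8 alone passed throughout (13.11 ± 0.83), beside 18.2% of all genes. Ccr2, the receptor that draws monocytes from blood, passed in 2 tumors, at 8.19 to 11.47 over all 6. Of 13 neutrophil genes none passed in all tumors, with the calgranulins S100a8 at 6.80 ± 1.07 and S100a9 at 7.62 ± 0.92.

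Lymphocyte and dendritic cell genes were mostly under the line. All 16 T cell genes were above it in no tumor, beside 14499 of all 19505 genes. In all 6 tumors 5 of the 16 lay above the brightest antigenomic probe set, beside 7950 of all genes. Cd3e, a signaling chain of T cells, had 10.91, 10.16, 7.52, 10.86, 10.41 and 9.78 in tumors 1 to 6, and tumor 3 lay apart at the low end. Cd8a, the coreceptor of cytotoxic T cells, had 10.76, 8.91, 8.19, 10.13, 10.60 and 9.91. Tumor 3 was the lowest for 13 of 16 T cell genes, 12 of 15 NK and cytotoxic genes and 11 of 13 pan-leukocyte genes, beside 16.2% of all genes. The cytotoxic effector genes Gzmb (5.59 ± 0.91) and Prf1 (5.06 ± 0.69) lay under the line in all tumors, and so did the B cell genes Cd79a (3.99 ± 0.37) and Ms4a1 (2.94 ± 0.48). Sdc1, a marker of plasma cells that epithelial cells share, was above it throughout at 14.25 ± 0.66, but Jchain (4.82 ± 1.11), the joining chain of secreted antibodies, was not above it in any.

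Of 19 checkpoint genes 5 lay above the line in all tumors, beside 18.2% of all genes. Another 11 lay above it in none, beside 14499 of all 19505 genes. Ligands were on both sides, and the inhibitory receptors PD-1 and CTLA-4 of T cells were above it in no tumor. Pdcd1lg2, which encodes the ligand PD-L2, averaged 6.23 ± 1.81 and was above it in none. Cd47, the surface signal that restrains phagocytes, spanned 15.00 to 15.26, and its receptor Sirpa averaged 15.27 ± 0.30. Cd274, which encodes PD-L1, had 11.86, 9.76, 9.66, 11.85, 11.36 and 11.08 in tumors 1 to 6 and was above it in 4 tumors. Pdcd1, which encodes its receptor PD-1, averaged 6.72 ± 0.91 and Ctla4 6.87 ± 0.93, both above it in no tumor. Vsir, a checkpoint ligand of myeloid cells, had 13.87 in tumor 4 and 12.20 to 12.78 in the others.

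Mast cell genes differed most between tumors 2 and 6. Cpa3, the mast cell carboxypeptidase, had 13.97, 15.85, 14.28, 14.67, 14.16 and 12.08 in tumors 1 to 6. Tpsb2, a tryptase, had 13.43, 15.23, 13.80, 13.67, 13.61 and 11.26. Mcpt4, the chymase of connective tissue mast cells, had 11.08, 13.63, 11.62, 11.79, 11.11 and 8.83. All 3 were highest in tumor 2 and lowest in tumor 6. Over the 12 measured genes of mast cells and eosinophils, 8 were highest in tumor 2, beside 15.3% of all genes, and 9 lowest in tumor 6, beside 15.8%. The range of the score over the 2 members above the line in all tumors was 3.87, and it was 2.50 without tumor 2 and 1.84 without tumor 6.

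Most genes of MHC class I presentation and the main class II chains were bright in every tumor. Of 15 MHC class I genes 11 lay above the line in all 6, beside 18.2% of all genes. Among them were B2m, the heavy chain H2-K1 (16.45 ± 0.55), the peptide transporter Tap1 (12.76 ± 0.72) and Tapbp (15.50 ± 0.29), which links it to the heavy chain. H2-D1, another heavy chain, and the immunoproteasome genes Psmb8 and Psmb9 missed the line only in tumor 3, and the transporter gene Tap2 passed in 3 tumors. Of 8 class II genes 4 lay above the line in all tumors, beside 18.2% of all genes. The 3 above it in none, beside 14499 of all 19505 genes, were H2-Oa (5.25 ± 0.66), H2-Ob (7.29 ± 0.69) and Ciita (9.39 ± 0.90), the master regulator of class II. The class II chains H2-Aa, H2-Ab1 and H2-Eb1 averaged 17.03 ± 0.51, 15.99 ± 0.44 and 16.07 ± 0.47. H2-K1 and other class I heavy chains are near-identical over much of their length, so their probe sets may share signal. Tumor 3 had the lowest class II score, −0.853, and tumors 4 and 1 the highest, 0.460 and 0.433.

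Genes of the interferon-γ response lay at opposite ends in tumors 1 and 3. Of 18 measured genes 12 lay above the line in all tumors, beside 18.2% of all genes. Tumor 1 was the highest for 14 of the 18, beside 14% of all genes, and tumor 3 the lowest for 12, beside 16.2%. The list holds 4 receptor chains and kinases of the pathway (Ifngr1, Ifngr2, Jak1 and Jak2), 3 of them among the 12, and for the other 14 genes these counts were 13 and 11. Of the 14 with a mean above the line, 10 were over 1 log2 unit lower in tumor 3 than the median of the others, beside 1.92% of all 4267 genes, and none of these 10 was a receptor chain or kinase. The score over the 12 members was 0.860 in tumor 1, −0.571 in tumor 2, −1.15 in tumor 3 and 0.143 to 0.373 in tumors 4 to 6. Its range was 2.01 with all tumors, and 1.44 without tumor 3. The cytokine gene Ifng itself averaged 6.15 ± 0.88 and was above the line in no tumor, and its receptor chains Ifngr1 (13.55 ± 0.35) and Ifngr2 (12.27 ± 0.13) were above it in all.

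Among these genes were the interferon-induced GTPases, which act on the vacuoles of intracellular pathogens. Gbp2 had 17.12, 14.97, 14.27, 16.07, 16.33 and 16.37 in tumors 1 to 6. Gbp3 had 15.03, 12.81, 12.09, 13.90, 14.13 and 14.49. Gbp7 had 15.47, 13.92, 12.87, 14.73, 15.08 and 14.78. These guanylate-binding proteins were highest in tumor 1, lowest in tumor 3 and next lowest in tumor 2. Of the immunity-related GTPases, Igtp had 14.41, 11.93, 11.59, 12.91, 13.38 and 13.51. Irgm1 had 14.64, 13.44, 12.83, 14.01, 14.23 and 14.06, and Irgm2 had 14.69, 12.97, 12.60, 13.79, 13.83 and 13.95. The 6 genes had the same highest, lowest and next lowest tumor. Members of each family are related in sequence, so their probe sets may share signal.

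Gbp4, Iigp1, Cxcl9, Cxcl10 and Gm12250 also had this highest, lowest and next lowest tumor, so the order was not particular to these 6 genes. For these 6, which all hold the letters marked below, the 120 bases before their annotated start sites are shown. They run 5′ to 3′ along the gene, from RefSeq on GRCm38.p6. Capitals mark 2 copies of GAAA spaced by any 2 bases, on either strand (TTTC on the opposite one), the core of the interferon-stimulated response element that interferon regulatory factors bind. The windows are chr3:142620543-142620662 (plus strand) for Gbp2, chr3:142559924-142560043 (plus strand) for Gbp3, chr3:142530216-142530335 (plus strand) for Gbp7, chr11:58199436-58199555 (plus strand) for Igtp, chr11:48871421-48871540 (minus strand) for Irgm1 and chr11:58214857-58214976 (plus strand) for Irgm2.
Gbp2: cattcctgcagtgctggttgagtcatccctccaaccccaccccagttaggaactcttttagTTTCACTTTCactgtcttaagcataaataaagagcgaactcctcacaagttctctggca
Gbp3: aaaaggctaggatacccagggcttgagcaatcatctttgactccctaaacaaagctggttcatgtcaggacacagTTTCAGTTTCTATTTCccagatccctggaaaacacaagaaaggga
Gbp7: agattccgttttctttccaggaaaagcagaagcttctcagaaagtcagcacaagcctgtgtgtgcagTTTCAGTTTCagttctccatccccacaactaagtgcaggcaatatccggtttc
Igtp: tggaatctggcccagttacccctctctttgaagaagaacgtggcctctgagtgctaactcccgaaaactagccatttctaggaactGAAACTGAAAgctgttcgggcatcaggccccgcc
Irgm1: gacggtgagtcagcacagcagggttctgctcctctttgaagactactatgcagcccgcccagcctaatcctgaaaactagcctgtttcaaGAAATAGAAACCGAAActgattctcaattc
Irgm2: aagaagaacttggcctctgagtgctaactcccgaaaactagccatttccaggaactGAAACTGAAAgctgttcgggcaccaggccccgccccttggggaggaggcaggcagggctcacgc

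The match began at position −59 relative to the start in Gbp2, −53 in Gbp7, −34 in Igtp and −64 in Irgm2. Gbp3 held 2 overlapping matches, at −45 and −39, and so did Irgm1, at −30 and −24. Gbp3 has a further annotated start site whose window held no match. The windows of Igtp and Irgm2 shared a run of 38 bases and, after 1 mismatch, a further run of 29 bases that holds the match, so these 2 matches lie in near-identical sequence. In promoters from 250 bases before to 50 after the start, 8 of the 14 interferon-γ list genes with an annotated promoter held this spaced pair on either strand, beside 1079 of 27025 genes (3.99%). Cxcl10 and Socs1 were the other two, and Irf1, Cxcl9, Ifngr1, Ifngr2, Jak1 and Jak2 had no match. A match of letters is a description of the window and not a mapped binding site.

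Cxcl9, a chemokine that draws T cells, had the same highest, lowest and next lowest tumor as the 6 GTPase genes, without such a match. Irf1, a regulator that interferons induce, followed a like order, also without one. Cxcl9 had 16.54, 15.46, 13.40, 16.33, 16.12 and 16.04 in tumors 1 to 6, with tumor 3 lying 2.72 log2 units below the median of the others. Irf1 had 14.73, 12.50, 13.03, 14.11, 14.21 and 14.38, and its lowest tumor was tumor 2 and not tumor 3. Gm12250, a further GTPase gene of this family and in no list, had 14.01, 11.69, 9.90, 12.79, 13.01 and 13.18. Type I interferon genes were dimmer, with 4 of 20 (20%) above the line in all tumors, beside 18.2% of all genes. They had a like order. Tumor 1 was the highest for 15 of the 20 and tumor 3 the lowest for 12, beside 14% and 16.2% of all genes. Of the 20, 12 were above the line in no tumor, beside 14499 of all 19505 genes. The score over the 4 above it in all tumors was 0.623 in tumor 1 and −0.672 in tumor 3. Among the 4 was Oasl2, which encodes an antiviral protein and averaged 12.97 ± 0.94. Of 21 genes on a separate chemokine list only Cxcl16 (14.84 ± 0.28), a membrane-bound chemokine, passed in all tumors, and Ccl8, a chemokine for monocytes, had 9.62 in tumor 3 and 11.17 to 13.39 in the others.

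Most T cell, NK and pan-leukocyte genes were also lowest in tumor 3, as given above, and their part in the interferon-γ values was not tested. Without tumor 3 the count of immune list members above the line in all remaining tumors was 72, and with it 63. Complement genes were lowest in tumor 3 too, with a score of −0.694, and highest in tumor 4 at 0.658.

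**Figure D5:**
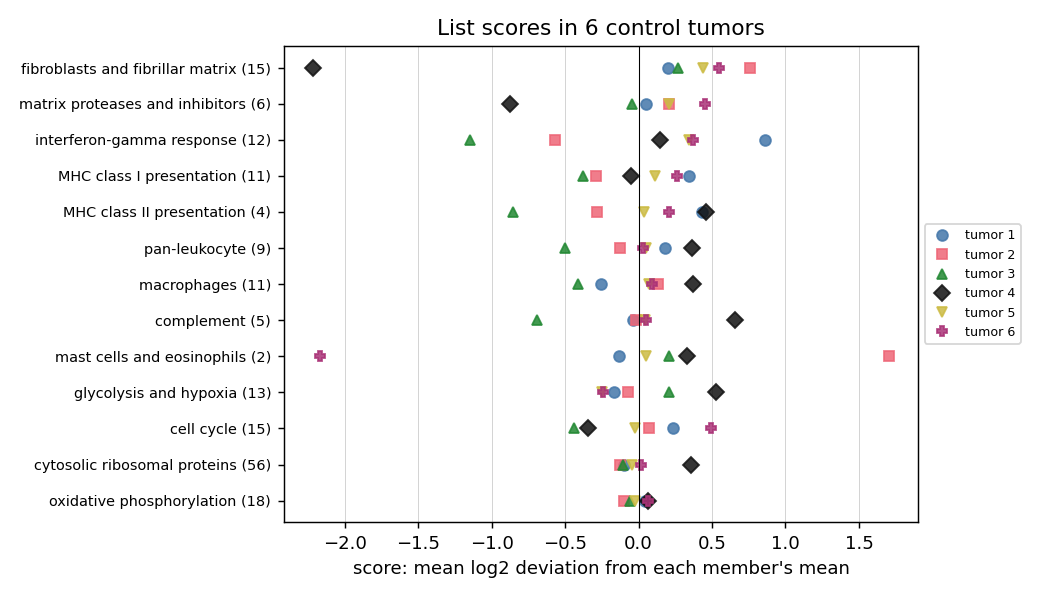
List score (x axis, mean log2 deviation of the members from their own means over the 6 tumors) for 13 lists (y axis, number of members used in parentheses), with 1 marker per control tumor. Members were those above the line in all 6 tumors, except for the fibroblast and matrix protease lists, which use those with a mean above it. Tumor 4 lies at −2.22 for fibroblasts, tumor 3 at −1.15 for interferon-γ, and tumors 2 and 6 at 1.71 and −2.17 for mast cells.

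Most genes varied little between tumors. The median SD was 0.345 over all genes, 0.243 over the 3556 genes above the line in all tumors and 0.371 over the rest, beside 0.570 for the negative controls. The 3556 genes had to be high in every tumor, which limits their spread. Of them, 103 had an SD under 0.1 and 16 (0.45%) an SD over 1. The 10 with the smallest SD were Eef1a1, Ddx17, Tead1, Cfl1, Atp6v1c1, Nacc1, Fkbp8, Rnf115, Rpl7 and Wnk1, each with an SD of 0.02 to 0.06. Ddx17, an RNA helicase, spanned 15.69 to 15.78. Tead1, the DNA-binding partner of the YAP coactivator, spanned 13.90 to 14.00, and Cfl1, the actin-severing cofilin, 17.35 to 17.50.

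Among the 4267 genes with a mean above the line, 51 (1.2%) had an SD over 1. Tumor 4 was the lowest tumor for 12 and the highest for 2 of the 20 genes with the largest SD, and tumors 2 and 3 were each the highest for 6. Col1a2 (SD 3.30), Col1a1 (2.94), Tnc (2.74), Postn (2.53), Mmp2 (2.36) and Col3a1 (2.34) led the order, with tumor 4 under the line for all 6. Without tumor 4 their SDs were 0.89, 0.74, 1.16, 0.54, 0.68 and 0.75. The median SD of the genes with a mean above the line was 0.259 with tumor 4 and 0.214 without it.

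Without tumor 4, 8 of the 20 genes remained among the 20 with the largest SD, namely Dbp, Mcpt4, Fcrls, Tns1, Prss23, Ccl8, Gm12250 and Fmo2. Dbp, a transcription factor under control of the circadian clock, had 12.36, 13.52, 10.81, 11.17, 9.82 and 9.29 in tumors 1 to 6. Fcrls, an Fc receptor-like gene of resident macrophages in mouse, had 10.36, 13.71, 14.33, 11.79, 13.46 and 13.89. Tns1, which links integrins to actin, had 10.95, 12.46, 15.27, 12.95, 14.20 and 13.04. Tumor 1 was thus the lowest for Fcrls and Tns1 and the second highest for Dbp. Clu, the secreted chaperone clusterin, was among those that entered and had 15.32 in tumor 3 and 11.84 to 13.18 elsewhere.

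Tumor 4 was the highest for Gstm1, a glutathione transferase, at 14.23 and at 10.46 to 12.12 in the others. The alarmin cytokine gene Il33 had 14.05 there and 10.49 to 12.12 elsewhere. Ly96, the coreceptor of the endotoxin receptor TLR4, had 13.39 and 10.42 to 11.15. These 3 genes were among those picked because tumor 4 lay farthest above the other tumors, so their separation restates that choice. Tumor 4 also had the highest value for 49 of the 56 ribosomal protein genes, beside 22.3% of all genes and 26.2% of those with a mean above the line, with a score of 0.358, and −0.128 to 0.019 in the others. The spike-in controls averaged 7.58 (bioB), 9.16 (bioC), 10.7 (bioD) and 11.68 (cre), with SDs of 0.24 to 0.40 over the 6 arrays.

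Stress and tissue handling can induce genes of the immediate early and heat shock response. Of 15 such genes 2 (13.3%) were above the line in all tumors, beside 18.2% of all genes. They were the transcription factor gene Egr1 (14.47 ± 0.34) and Dusp1 (14.98 ± 0.45), a phosphatase of MAP kinases. Tumor 4 was the highest for 8 of the 15, beside 22.3% of all genes. Of the 15, 10 were above the line in no tumor, beside 14499 of all 19505 genes. The score over all 15 was 0.610 in tumor 4 and −0.442 to 0.099 in the others. Over Egr1 and Dusp1 alone it was 0.042 in tumor 4 and −0.413 to 0.318 in the others. The part of handling in the values of tumor 4 was not tested. Cachexia is muscle wasting that often accompanies PDAC, and per the paper its transplant model does not cause it. Of 10 measured secreted factors linked to cachexia, none was above the line in all tumors, beside 18.2% of all genes. Inhba, a subunit of activin, came nearest with 10.86 to 12.91 and 5 tumors above, and the cytokine gene Il1b spanned 8.46 to 12.07 with 3 tumors above.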

How the data were processed

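RNA of 6 control tumors of a series of 26 was measured on 1 array each. The authors deposited 1 processed intensity per probe set on a log scale, taken here as log2, and no source used here names its log base, normalization, software or genome build. The values were used as deposited. Gene symbols came from the platform's listing, where 19572 probe sets had 1 symbol and 9274 had none, of which 5222 were negative controls, and for 55 genes with several probe sets the brightest was kept. A gene was above background where it exceeded, in each of the 6 tumors, the 95th percentile of the negative controls. The 46 gene lists, and the choice of these tumors, were made with earlier results of these data known, and 4 further lists were added once the values had been seen. Named genes were the 30 with the highest mean, the 20 with the largest SD among genes with a mean above the line, the 10 with the smallest SD, 4 members of each list by mean and 2 by SD, markers, and genes the paper names. Others, chosen after their values were seen, were members of the lists, genes far from the other tumors and Gm12250. A list score was the mean over members of each value minus the gene's mean. With 1 group there was no test. The steps were tested on simulated data and run in Python 3.11.15 with pandas 2.3.3, numpy 2.4.6 and matplotlib 3.10.9. Promoters were those of RefSeq on GRCm38.p6. Alternatives were other background lines, filters, normalizations and measures of spread, and leaving out each tumor. The number of arrays limits the precision.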

Additional observations from a re-analysis of the deposited data

Results flagged for a closer look

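Of 391 named genes, 54 (13.8%) had a tumor that lay far from the others, with a gap to its nearest neighbour of over 0.625 of the whole range of the 6 tumors, beside 7.40% of all genes and 8.75% of the genes above the line in all 6. The named genes include the 20 with the largest SD, genes chosen because 1 tumor lay far from the others, and the hepatocyte genes, so the first share restates that choice in part and is not a result. Chance gives such a gap in about 1 of 20 groups. Tumor 2 was at the high end for 20 of the 54, and tumor 4 for 10, while tumor 4 was at the low end for 12. Most of the first 20 were hepatocyte genes. Values below are gap over range.

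In tumor 2 the hepatocyte genes were high, with 0.824 for Alb, 0.887 for Apoa1, 0.664 for Apoa2, 0.652 for Cps1, 0.861 for Fga, 0.920 for Fgb, 0.857 for Fgg, 0.738 for Hpx, 0.717 for Mup20 and 0.783 for Mup3. The α1-antitrypsin genes, near-identical copies whose probe sets may share signal, had 0.705 for Serpina1a, 0.941 for Serpina1b, 0.828 for Serpina1c, 0.868 for Serpina1d and 0.852 for Serpina1e. Tat had 0.899, Tdo2 0.698 and Ttr 0.664. Of these genes only Alb was above the background line, and only in tumor 2. Fkbp5 (0.688) and Tsc22d3 (0.767), which glucocorticoids induce, were high in the same tumor.

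In tumor 4 the matrix genes Col1a1 (0.759), Col1a2 (0.775), Col3a1 (0.707), Mmp2 (0.717) and Postn (0.792) were low, as were Epb41l4a (0.659), Hnrnpa2b1 (0.682), Ndufs1 (0.646), Ptma (0.888), Perp (0.851), Lat (0.664) and Eif2s3y (0.671). The last 3 were under the line in all tumors, and the Y-linked Eif2s3y had 6.09 in tumor 4 and up to 8.94 in the others, while the Y-linked Uty spanned 8.15 to 9.52. Tumor 4 was high for Eef2 (0.695), Eif5a (0.715), Rpl23 (0.713), Rpl39 (0.729), Psap (0.658), Ly96 (0.753), Pecam1 (0.734), Trp53i11 (0.647), Vsir (0.656) and, under the line, Foxa2 (0.882).

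Tumor 3 was low for Cxcl9 (0.656), Lcp1 (0.640), Cd3e (0.667) and Klrd1 (0.633). Tumor 6 was high for the cholesterol synthesis genes Sqle (0.767), Msmo1 (0.744), Sc5d (0.723) and Lss (0.645), and low for Fth1 (0.751) and Ptf1a (0.727), which spanned 18.07 to 18.35 and 2.06 to 2.76. Tumor 5 was high for Rpl7 (0.649), within 17.14 to 17.31, and tumor 1 for Prss2 (0.695), at 4.69 and 3.56 to 3.90 elsewhere. Of 31 list scores, 2 had such a gap, both from a high tumor 4, with 0.640 for checkpoint genes and 0.698 for ribosomal proteins.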

How the results depend on the processing

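The counts above background depended on the line. With the 99th percentile of the negative controls the 3556 genes became 467, and the 125 tumor, stromal and immune list members became 36, as 14 tumor, 3 stromal and 19 immune genes. With the brightest antigenomic probe set, an alternative chosen after seeing the data, they became 7950 and 240, with 46 stromal and 127 immune genes. Stromal genes numbered 28, both where 3 of 6 tumors sufficed and by the mean. Of the 20 most variable genes, 9 were kept with the median absolute deviation, 2 among genes above the line in all tumors, 4 with no filter, and 8 to 18 when a tumor was left out, with 8 without tumor 4. List scores with a tumor far apart numbered 4 by members with a mean above the line, 7 by all members, 4 after quantile normalization, and 0 to 4 when a tumor was left out, with 0 without tumor 1 or 5 and 4 without tumor 3 or 4. The range of the fibroblast score was 2.98 and 3.42 with these wider memberships, and 0.478 to 1.05 when a tumor was left out, with 0.478 without tumor 4. Leaving out tumors gave 3576 to 3745 genes above background, 126 to 136 list members, and 29 or 30 of the 30 brightest. No paired analysis was possible because the values come from 1 group and from no test. The arrays hold no depth, and signal over background limits what can be said of genes under the line.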

Other observations

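Lists written after the values were seen gave further differences between tumors, described without a test. Of 26 hepatocyte genes, none was above the line in all tumors, beside 18.2% of all genes. Their score over all 26 was 2.96 in tumor 2 and −0.834 to −0.489 in the others. Apoa1, the main apolipoprotein of HDL, had 7.75 in tumor 2 and 2.40 to 3.00 elsewhere, and the fibrinogen chain Fga had 8.40 and 3.16 to 3.89. The exceptions were Ahsg, highest in tumor 4 at 10.16, and Cyp3a11, highest in tumor 1 at 3.99. Major urinary proteins are made in liver and glands, and Mup3 and Mup20 are among these hepatocyte genes. Mup2, Mup19, Mup22 and Mup9 were also highest in tumor 2 but were spread more widely over the other tumors. Mup2 had 12.10, 15.40, 7.84, 6.74, 11.61 and 10.17 in tumors 1 to 6, and its near-identical copies Mup19, Mup22 and Mup9 may share its signal. The haptoglobin gene Hp had 13.17, 11.21, 9.28, 6.85, 12.92 and 11.23. The part of hepatocyte RNA in the other values of tumor 2 was not tested.

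Glucocorticoid-induced genes were highest in tumor 2 for 8 of 10, beside 15.3% of all genes, with Tsc22d3 at 14.19 there and 9.83 to 10.85 elsewhere and Fkbp5 at 16.82 and 13.76 to 14.71. The range of their score was 1.585, and 0.692 without tumor 2. Tumor 2 was also the highest for 8 of 16 circadian clock genes, beside 15.3% of all genes. Per1, a repressor of the clock, had 11.22, 12.90, 10.42, 11.44, 9.59 and 8.49 in tumors 1 to 6. The E-box letters CACGTG, which clock factors bind, were in the promoters of 5 of 14 clock genes, Tef, Per1, Ciart, Bhlhe41 and Cry1, beside 8.09% of all genes. Cholesterol synthesis genes were highest in tumor 6 for 14 of 18, beside 17.1% of all genes, with a score of 0.752 there and −0.401 to 0.110 in the others. Sqle, which encodes squalene epoxidase, had 12.59 in tumor 6 and 11.04 to 11.40 elsewhere, and Hmgcs1 had 15.66 and 13.44 to 14.90.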
